A study of Mus musculus with 12 samples.

Results

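The genes described here are 34 mitosis and spindle checkpoint genes: mitotic cyclins and kinases, spindle checkpoint proteins, kinetochore and spindle proteins, and proteins of the midzone and cytokinesis. They were chosen by symbol, and all 34 were found among the 52535 gene entries counted in each library. RNA was sequenced from E14 cells, a mouse embryonic stem cell line, after removal of ribosomal RNA. The groups were clone 1 and clone 2, both labelled as Bcat1 knockout, and wild type (WT), with 2 libraries each. All groups grew in the same kind of medium, with serum, the cytokine LIF and the kinase inhibitor mix 2i. Bcat1 encodes a cytosolic enzyme that transfers amino groups from leucine, isoleucine and valine, and the title of the series links it with self-renewal, pluripotency and Ras signalling. Each knockout group is a single clone, so effects of the deletion and of the clone cannot be told apart within it, and 4 libraries from 2 clones are not 4 independent replicates. How the deletion was made is not given in the sources used here. Nothing in the labels shows replicates to be separate cultures, so the p-values reflect the spread among these libraries alone, which could be technical. The 6 time-course samples of the series were not analysed here.

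Gene counts totalled 12116149 and 12618319 in clone 1, 11976149 and 12864573 in clone 2, and 13294805 and 13923262 in WT. Values below are counts scaled by library size (normalised CPM). Bcat1 RNA stood at 617 and 662 CPM in clone 1, 583 and 579 CPM in clone 2, and 602 and 614 CPM in WT. Knockout label against WT, its log2 fold change was 0.01 ± 0.08 (SE, adjusted p = 0.977), so gene-level RNA does not check the knockout label. The 8 markers of pluripotent stem cells were present in every library, summing to 6159 to 6187 CPM in clone 1, 6299 to 6334 CPM in clone 2 and 6632 to 6799 CPM in WT. The 8 fibroblast and feeder markers summed to 32.1 to 33.5 CPM in clone 1, 20.7 to 21.0 CPM in clone 2 and 23.7 to 23.9 CPM in WT, and Dcn, Lum and Postn were at 0 throughout. The 5 trophoblast markers summed to 22.1 to 28.7 CPM in clone 1, 17.9 to 18.6 CPM in clone 2 and 35.1 to 40.2 CPM in WT. The 6 endoderm markers summed to 4.52 to 5.37 CPM in clone 1, 4.19 to 4.22 CPM in clone 2 and 1.47 to 2.81 CPM in WT. The 5 neural markers summed to 94.3 to 96.3 CPM in clone 1, 68.0 to 77.1 CPM in clone 2 and 85.8 to 97.4 CPM in WT. The 4 mesoderm markers summed to 11.6 to 14 CPM in clone 1, 9.12 to 11.2 CPM in clone 2 and 9.64 to 11.7 CPM in WT. Single markers did not all follow these sums. Of 3 trophoblast markers tested in clone 1 against WT, 2 were higher (12.4% of all genes tested were) and 1 was lower (9.53%). Their median log2 fold change was 0.92. Of 2 mesoderm markers tested in clone 2 against WT, 1 was higher (10.1% of all genes) and 1 was lower (7.81%). The part of these markers in the results below was not tested.

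At the entry into mitosis, cyclin B and its kinase CDK1 are switched on by phosphatases of the CDC25 family. The spindle checkpoint then holds the anaphase-promoting complex inactive until every kinetochore is attached to microtubules, after which CDC20 lets that ubiquitin ligase mark cyclin B and securin for destruction and separase cut the cohesin between sister chromatids. Many of these genes are transcribed mainly late in the cell cycle, through promoter elements bound by the MuvB complex with B-Myb or FoxM1 (the cell cycle homology region, CHR) and by NF-Y (the CCAAT box). Mouse embryonic stem cells divide rapidly, with a short G1 phase.

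Promoter sequences were matched for 28 of the 34 members, as 31 windows spanning 250 bases before to 50 bases after a RefSeq gene start (GRCm38.p6), and a gene with several windows was counted where any of them held the motif. The windows of 25 of these members held the 5′ end that GENCODE M21 gives the gene. The window of Mad2l1 lies wholly before that end, and those of Kif2c and Pttg1 lie wholly inside the gene, with no base before its M21 5′ end, so their counts do not describe the sequence upstream of it. The CHR was searched as TTTGAA or TTCGAA and the CCAAT box as CCAAT, both on either strand. The shares below are of genes with a promoter sequence, 10456 among the genes tested and 27025 in all. A CHR was found in 22 of the 28 members (78.6%), against 16.2% of genes tested and 21.7% of all genes. A CCAAT box was found in 21 members (75.0%), against 43.2% of genes tested and 41.1% of all genes. Both motifs stood in 19 members (67.9%), against 8.1% of genes tested and 9.7% of all genes. These matches describe letters, not binding. The promoters of Cdc20, Cenpa and Cdk1 are shown because these genes carry main results below, and each holds both motifs. Capitals mark the CHR and CCAAT box matches on the strand printed, ATTGG being the CCAAT box read from the opposite strand, and none of the marked matches overlap. The windows are chr4:118437294-118437593 on the minus strand for Cdc20, chr5:30666636-30666935 on the plus strand for Cenpa, and chr10:69352863-69353162 on the minus strand for Cdk1.
Cdc20: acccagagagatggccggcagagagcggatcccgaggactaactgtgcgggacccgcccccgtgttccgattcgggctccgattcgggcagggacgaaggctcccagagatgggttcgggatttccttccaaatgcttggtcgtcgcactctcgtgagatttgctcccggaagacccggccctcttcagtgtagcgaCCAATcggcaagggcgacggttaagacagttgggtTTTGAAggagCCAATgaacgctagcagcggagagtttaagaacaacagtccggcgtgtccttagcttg
Cenpa: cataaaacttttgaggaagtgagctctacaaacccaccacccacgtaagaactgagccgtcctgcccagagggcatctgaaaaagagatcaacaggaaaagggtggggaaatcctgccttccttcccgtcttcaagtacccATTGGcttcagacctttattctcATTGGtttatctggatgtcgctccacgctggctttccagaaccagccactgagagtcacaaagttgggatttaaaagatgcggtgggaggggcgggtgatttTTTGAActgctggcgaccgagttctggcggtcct
Cdk1: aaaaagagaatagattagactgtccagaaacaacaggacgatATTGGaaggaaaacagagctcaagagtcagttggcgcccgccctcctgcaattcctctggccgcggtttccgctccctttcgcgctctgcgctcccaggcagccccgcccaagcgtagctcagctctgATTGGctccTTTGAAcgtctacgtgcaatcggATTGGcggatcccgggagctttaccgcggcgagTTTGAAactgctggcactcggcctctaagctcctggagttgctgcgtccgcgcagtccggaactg
The CHR of Cdc20 begins 18 bases before the start, between CCAAT boxes that begin 53 and 8 bases before it. In Cenpa the CHR begins 16 bases after the start, with CCAAT boxes 109 and 86 bases before it. Cdk1 has CHR matches 71 and 15 bases before the start and CCAAT boxes 208, 80 and 48 bases before it. These positions are counted from the RefSeq start. Only 141 bases of the Cenpa window, 241 of the Cdc20 window and 224 of the Cdk1 window lie before the M21 5′ end. All marked Cenpa matches therefore begin at or inside the M21 gene. So do the Cdc20 CCAAT box 8 bases before the RefSeq start and the Cdk1 CHR 15 bases before it.

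Per kilobase of merged exon, the members spanned a 132-fold range of levels in WT. Cdc20, the activator of the anaphase-promoting complex, was highest on this length, at 119 ± 14.6 CPM per kb in clone 1, 145 ± 4.13 in clone 2 and 173 ± 0.430 in WT (SD, n = 2 each). Top2a, the topoisomerase that untangles sister chromatids, followed at 89.8 ± 13.7 CPM per kb in clone 1, 111 ± 1.85 in clone 2 and 108 ± 0.886 in WT. Per kilobase of the longest transcript the order of these genes turned round, with 187 CPM per kb for Top2a and 181 CPM per kb for Cdc20 in WT. Next in WT came the B-type cyclins Ccnb2 and Ccnb1, at 94.0 ± 4.81 and 88.4 ± 3.98 CPM per kb, whose WT libraries overlapped. In WT the levels then ran downward from Bub1b, Plk1, Tpx2, Birc5, Incenp, Ccna2, Cdk1, Kif20a, Cenpa, Bub1, Ect2, Kif2c, Bub3, Espl1, Aurkb, Racgap1, Anln, Cenpf, Ttk, Kif23, Cenpe, Spc25, Pttg1, Mad2l1, Prc1, Ndc80 and Nuf2 to Cdc25c (5.03 ± 0.0248 CPM per kb), Cdc25b (4.77 ± 0.133 CPM per kb) and Kif11 (1.31 ± 0.00243 CPM per kb). Of the 33 neighbouring pairs in this order, 10 overlapped between their WT libraries and 23 did not. Median member levels per length were 28.2 CPM per kb in clone 1, 31.2 in clone 2 and 28.0 in WT. Pttg1 stood at rank 33 in clone 2, against rank 27 in clone 1 and in WT.

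**Figure D1:**
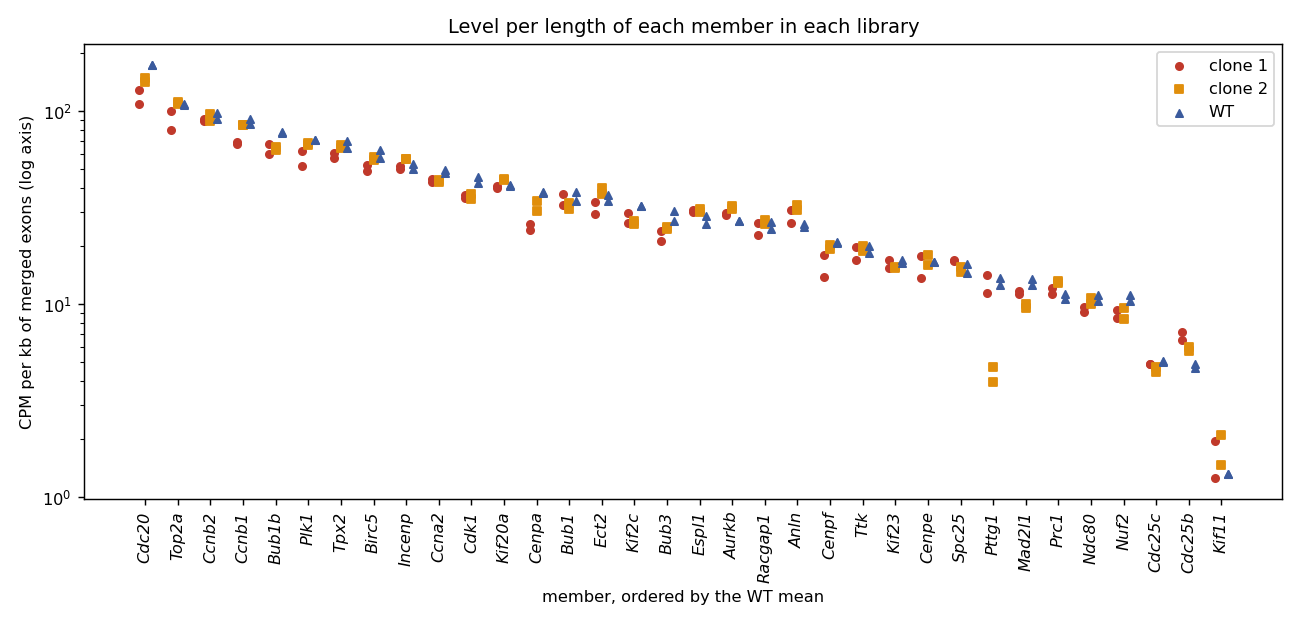
Level of each member per kilobase of merged exon (CPM per kb, log axis) in every library of clone 1, clone 2 and WT, ordered by the WT mean. Cdc20 is highest and Kif11 lowest on this length, and the clone 2 points of Pttg1 (3.93 and 4.71 CPM per kb) lie apart from the rest of its row.

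Summed over all members, RNA stood at 5835 and 5435 CPM in clone 1, 6298 and 6190 CPM in clone 2, and 6530 and 6338 CPM in WT. Both clones lay below both WT libraries, and clone 1 lay below clone 2. Without Top2a, the most abundant member, the sums were 4938 and 4713 CPM in clone 1, 5288 and 5204 CPM in clone 2, and 5549 and 5369 CPM in WT, with the same order. In bulk RNA, fewer cells in mitosis and less RNA per mitotic cell cannot be told apart, and the cell cycle makeup of the cultures was not measured.

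**Figure D2:**
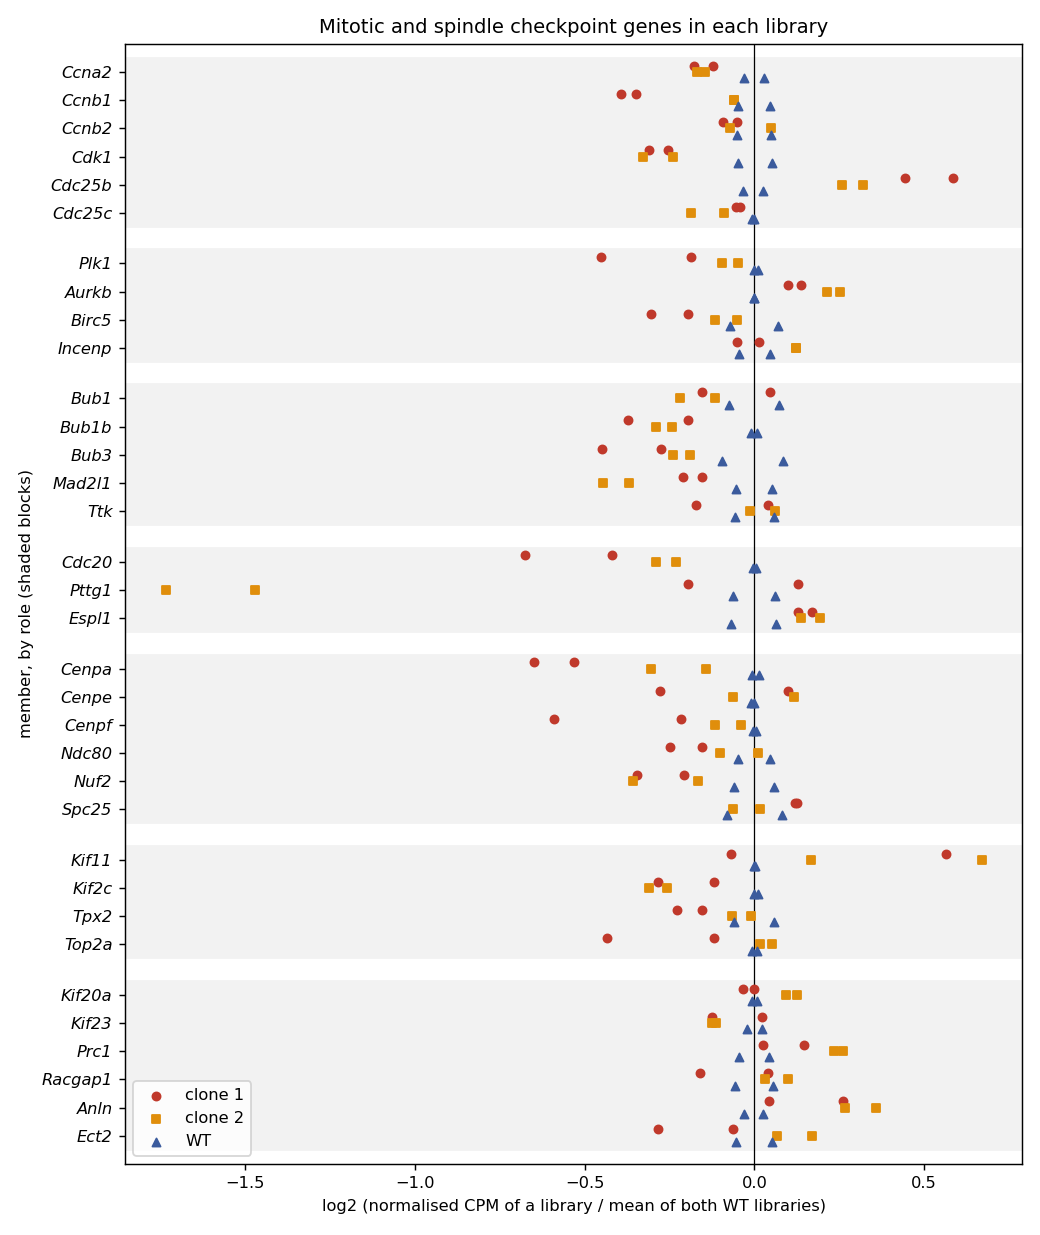
Log2 ratio of the CPM of each library to the mean of both WT libraries (horizontal axis) for each of the 34 members, with shaded blocks for roles and 1 point per library of clone 1, clone 2 and WT. Both clone 1 points lie left of both WT points for 19 members, and both clone 2 points of Pttg1 lie far left of all others.

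With both clones taken as 1 genotype, no member passed the test against WT (0 of 34 at an adjusted p of 0.05, edgeR), where 6.36% of all 14946 genes tested did (4.25% higher and 2.11% lower). At an unadjusted p under 0.05 there were 10 members (29.4%), against 23.0% of all genes tested. At an adjusted p of 0.05, DESeq2 called 4 (11.8%, against 9.15% of all genes). The median log2 fold change of the members was -0.11, against 0.00 over all genes. The smallest p-values belonged to Cdk1 (-0.29 ± 0.08, SE, adjusted p = 0.0563), Bub1b (-0.27 ± 0.08, adjusted p = 0.0710), Cdc20 (-0.39 ± 0.12, adjusted p = 0.0759) and Cenpa (-0.40 ± 0.13, adjusted p = 0.100). All libraries labelled knockout lay below both WT libraries for 13 members (16.7% of all genes tested) and above them for 4 (18.3%).

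Taken clone by clone, more members passed. In clone 1 against WT, 10 members were lower (9.53% of all genes tested were) and 1 was higher (12.4%). In clone 2 against WT, 6 members were lower (7.81% of all genes) and 1 was higher (10.1%). Between the clones, 6 members were higher in clone 2 than in clone 1 (6.62% of all genes) and 1 was lower (7.71%). Median log2 fold changes of the members were -0.11 in clone 1 and -0.05 in clone 2 against WT, and 0.12 for clone 2 against clone 1, each beside 0.00 over all genes. Both clone 1 libraries lay below both WT libraries for 19 members (28.8% of all genes) and above them for 5 (30.6%). Both clone 2 libraries lay below WT for 16 members (30.0%) and above it for 10 (31.3%). Clone 2 lay above clone 1 for 16 members (26.9%) and below it for 5 (27.7%). The 2 clone comparisons share the WT libraries, so the values of each are given side by side below. Cdk1, Bub1b and Cdc20 passed in both, a description of calls and not a test of a difference between clones. How many of all genes passed in both was not counted, so no share stands beside these members. Single libraries moved these counts, and the share of all genes called moved with them. Without WT replicate 1, 2 members passed in clone 1 (5.88% of members and 10.1% of all genes), 1 in clone 2 (2.94% and 7.40%) and 3 between the clones (8.82% and 11.2%), each share of members below that of all genes. Without WT replicate 2 the counts were 4 in clone 1 (11.8% of members and 11.0% of all genes), 2 in clone 2 (5.88% and 8.54%) and 3 between the clones (8.82% and 11.3%). In clone 2 against WT, 1 member passed without clone 2 replicate 1 (2.94%, against 8.76% of all genes) and 2 without clone 2 replicate 2 (5.88%, against 9.35%). Without clone 1 replicate 1 there were 13 (38.2%, against 27.5%), and without clone 1 replicate 2 there were 14 (41.2%, against 27.6%). Between the clones, 2 passed without clone 2 replicate 1 (5.88%, against 6.38%) and 1 without clone 2 replicate 2 (2.94%, against 6.35%). With all libraries the shares, in either direction, were 32.4% of members and 21.9% of all genes in clone 1, 20.6% and 17.9% in clone 2, and 20.6% and 14.3% between the clones.

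**Figure D3:**
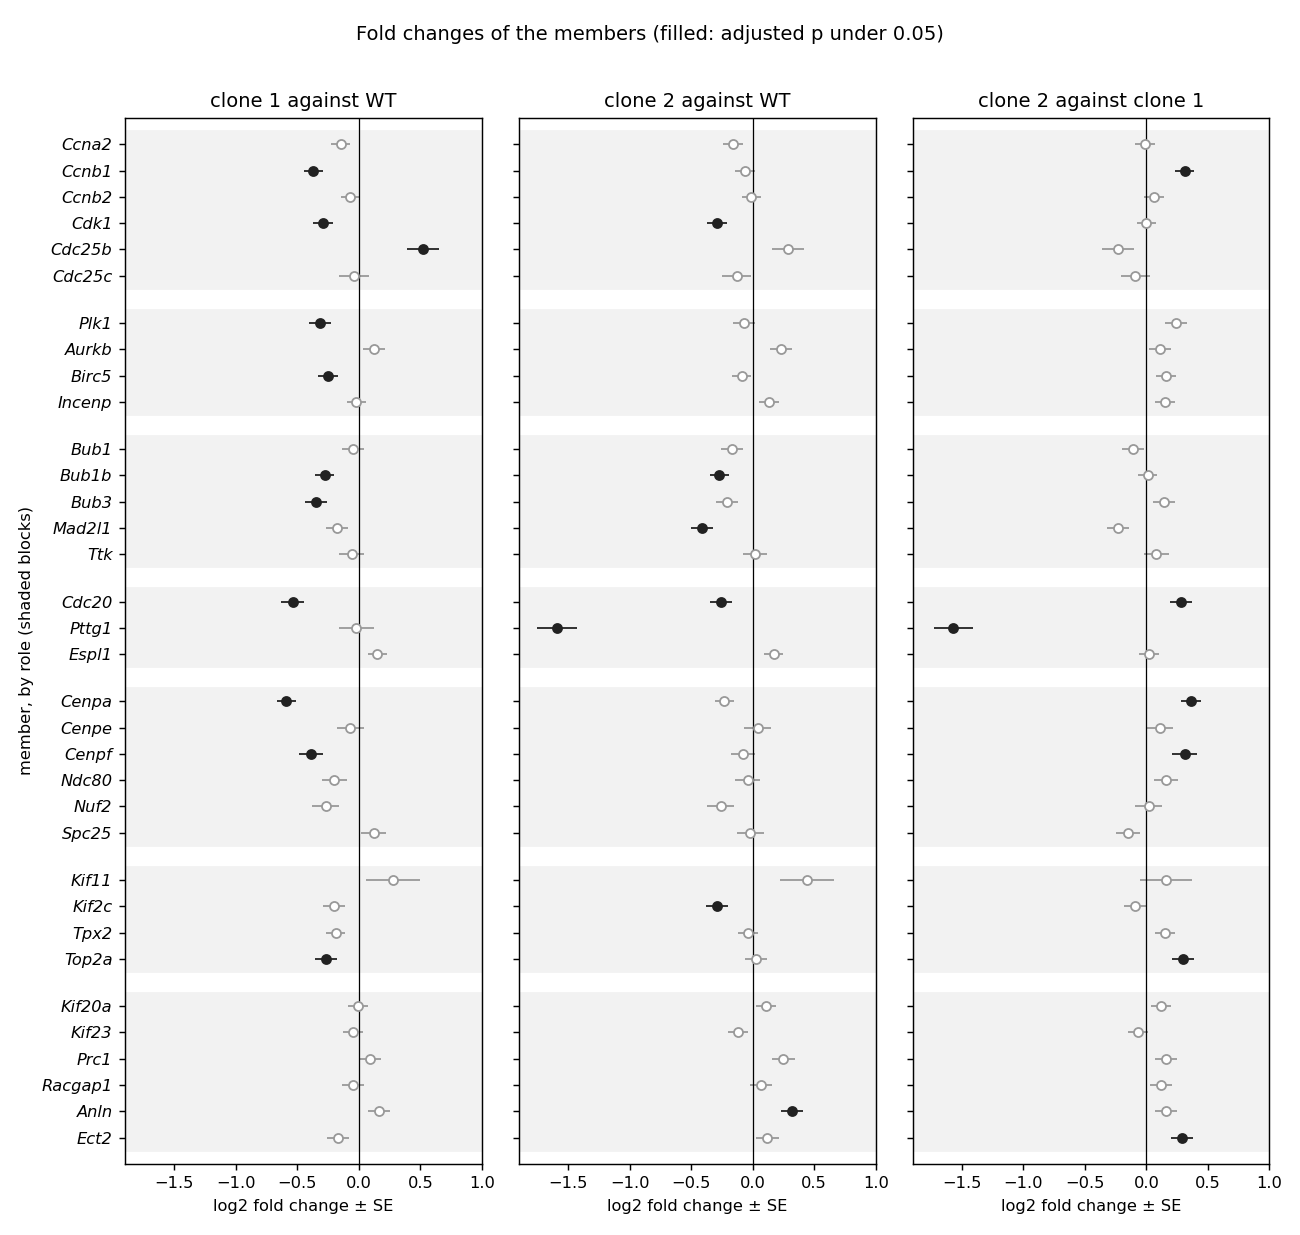
Log2 fold change of each member with its SE for clone 1 against WT, clone 2 against WT and clone 2 against clone 1, with filled points for members past an adjusted p of 0.05. Points of clone 1 lie mostly left of zero for checkpoint and kinetochore genes, and Pttg1 lies at -1.59 in clone 2 against -0.02 in clone 1.

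Among the mitotic cyclins, CDK1 and its phosphatases, 2 of 6 members fell in clone 1 against WT (9.53% of all genes). Another 1 rose there (12.4%), and 1 fell in clone 2 (7.81%). Each role has few members, so 1 call alone is a large share of a role. Ccnb1, the B-type cyclin that drives entry into mitosis, had 293 and 284 CPM in clone 1, 358 and 358 CPM in clone 2, and 385 and 361 CPM in WT. Clone 1 did not overlap WT, and clone 2 lay just below it. Ccnb1 fell in clone 1 (log2 fold change -0.37 ± 0.08, adjusted p = 0.00210) and had a fold change of -0.06 ± 0.08 in clone 2 (adjusted p = 0.658), and it was higher in clone 2 than in clone 1 (0.31 ± 0.08, adjusted p = 0.0104). Cdk1, the catalytic partner of cyclin B, had 174 and 181 CPM in clone 1, 183 and 172 CPM in clone 2, and 224 and 209 CPM in WT. Both clones lay below WT and overlapped each other. Cdk1 fell by 0.29 ± 0.08 on the log2 scale in each clone (adjusted p = 0.0179 in clone 1 and 0.0210 in clone 2). Cdc25b, a phosphatase that activates CDK1, had 26.7 and 24.2 CPM in clone 1, 21.3 and 22.2 CPM in clone 2, and 18.1 and 17.4 CPM in WT. It rose in clone 1 (0.52 ± 0.13, adjusted p = 0.00897) and stood at 0.29 ± 0.13 in clone 2 (adjusted p = 0.145). Ccna2, Ccnb2 and Cdc25c passed in no comparison, with log2 fold changes between -0.16 and 0.06 across them. Without WT replicate 1 the clone 1 calls of Ccnb1 (adjusted p = 0.0537), Cdk1 (0.174) and Cdc25b (0.0590) were lost, and without WT replicate 2 those of Cdk1 (0.0582) and Cdc25b (0.0830). For Cdk1 in clone 2, the call was lost without either clone 2 library (adjusted p = 0.0884 and 0.239) and without either WT library (0.202 and 0.0674). The Ccnb1 difference between the clones was lost without either clone 2 library (0.122 and 0.115).

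Of the mitotic kinases and the chromosomal passenger complex, which corrects faulty attachments and later guides cytokinesis, 2 of 4 members fell in clone 1. Beside them, 9.53% of all genes were lower there. None of these members passed in clone 2, where 17.9% of all genes did. Plk1, a kinase needed for spindle assembly, had 114 and 137 CPM in clone 1, 146 and 151 CPM in clone 2, and 157 and 156 CPM in WT. Every library of both clones lay below WT. It fell in clone 1 (-0.32 ± 0.09, adjusted p = 0.0197), against -0.07 ± 0.09 in clone 2 (adjusted p = 0.645). Birc5 encodes survivin, which recruits the passenger complex to centromeres. It had 166 and 179 CPM in clone 1, 189 and 198 CPM in clone 2, and 215 and 195 CPM in WT. Clone 1 lay below WT and clone 2 overlapped it. Birc5 fell in clone 1 (-0.25 ± 0.08, adjusted p = 0.0404), against -0.09 ± 0.08 in clone 2 (adjusted p = 0.534). Aurkb, the kinase of the complex, had 85.1 and 87.4 CPM in clone 1, 92.0 and 94.5 CPM in clone 2, and 79.4 and 79.3 CPM in WT. Its levels in both clones lay above WT, with log2 fold changes of 0.12 ± 0.09 in clone 1 (adjusted p = 0.357) and 0.23 ± 0.09 in clone 2 (adjusted p = 0.0779). Incenp, the scaffold of the complex, lay between -0.02 and 0.15 in the 3 clone comparisons and did not pass. The Plk1 call was lost without either WT library (adjusted p = 0.130 and 0.117) and without clone 1 replicate 1 (-0.19, adjusted p = 0.0939). Birc5 lost its call without WT replicate 1 (0.308), WT replicate 2 (0.0732), clone 1 replicate 1 (0.0733) and either clone 2 library (0.0832 and 0.0844), with DESeq2 (0.0552) and when only the 4 compared libraries were fitted (0.0867).

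Within the spindle checkpoint, 2 of 5 members fell in each clone (9.53% of all genes in clone 1 and 7.81% in clone 2). Bub1b fell in both. Bub1b encodes BUBR1, part of the complex that inhibits CDC20. It had 288 and 255 CPM in clone 1, 279 and 270 CPM in clone 2, and 332 and 328 CPM in WT, with no overlap between either clone and WT. Bub1b fell by 0.28 ± 0.08 on the log2 scale in clone 1 (adjusted p = 0.0198) and by 0.27 ± 0.08 in clone 2 (adjusted p = 0.0311). Bub3, which anchors BUB1 and BUBR1 at kinetochores, had 148 and 167 CPM in clone 1, 177 and 171 CPM in clone 2, and 214 and 189 CPM in WT. It fell in clone 1 (-0.35 ± 0.09, adjusted p = 0.00882) and stood at -0.21 ± 0.09 in clone 2 (adjusted p = 0.109). Mad2l1 encodes MAD2, the checkpoint protein that binds CDC20. It had 98.0 and 94.2 CPM in clone 1, 80 and 84.3 CPM in clone 2, and 113 and 105 CPM in WT. All libraries of both clones lay below WT, and clone 2 lay lowest. Mad2l1 fell in clone 2 (-0.41 ± 0.09, adjusted p = 0.00413), against -0.18 ± 0.09 in clone 1 (adjusted p = 0.159), and the difference between the clones did not pass (-0.23 ± 0.09, adjusted p = 0.106). Bub1 and Ttk, both checkpoint kinases, lay between -0.17 and 0.08 in the 3 clone comparisons and did not pass. Bub1b lost its clone 1 call without WT replicate 1 (adjusted p = 0.134), WT replicate 2 (0.108) and clone 1 replicate 2 (0.0531) and when only the 4 compared libraries were fitted (0.0506), and its clone 2 call without WT replicate 1 (0.185), WT replicate 2 (0.142) and either clone 2 library (0.146 and 0.235). Without WT replicate 1, Bub3 (0.156) and Mad2l1 (0.0819) also lost their calls, and Mad2l1 did so without clone 2 replicate 1 (0.0797).

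At anaphase onset, Cdc20 fell in both clones and Pttg1 in clone 2. Cdc20 (chromosome 4, 118432901 to 118437352, minus strand, GRCm38) had 203 and 242 CPM in clone 1, 265 and 276 CPM in clone 2, and 323 and 325 CPM in WT. The groups did not overlap, clone 1 being lowest and WT highest. Of the 50-base words in its transcripts, 10.6% also occur in other genes, mainly Gm7856, Elovl1 and AC132235.3, so its counts are uncertain to that extent. Cdc20 fell by 0.54 ± 0.09 on the log2 scale in clone 1 (adjusted p = 2.69e-04) and by 0.26 ± 0.09 in clone 2 (adjusted p = 0.0483), and it was higher in clone 2 than in clone 1 (0.28 ± 0.09, adjusted p = 0.0375). Its clone 1 call held under every alternative tried. In clone 2 the call was lost without any one of the WT (adjusted p = 0.214 and 0.208) or clone 2 libraries (0.295 and 0.169), and with DESeq2 (0.0633). The difference between the clones was lost without either WT library (0.0837 each), clone 1 replicate 1 (0.16, adjusted p = 0.154) and either clone 2 library (0.164 and 0.265), and when only the 4 compared libraries were fitted (0.0828).

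Pttg1 (chromosome 11, 43420250 to 43426251, minus strand, GRCm38) encodes securin, the inhibitor of separase that is destroyed when sister chromatids part. It had 22.8 and 28.5 CPM in clone 1, 7.85 and 9.41 CPM in clone 2, and 25.0 and 27.2 CPM in WT. Both clone 2 libraries were far below all others, and clone 1 overlapped WT. Pttg1 fell by 1.59 ± 0.16 on the log2 scale in clone 2 against WT, to a level 0.33 times that of WT (adjusted p = 2.36e-06). Clone 2 was also lower than clone 1 (-1.57 ± 0.16, adjusted p = 5.12e-06), while clone 1 stood at -0.02 ± 0.14 against WT (adjusted p = 0.925). The calls in clone 2 against WT and against clone 1 held under every alternative tried. The lowest Pttg1 count in a library was 93. Espl1, which encodes separase, passed in no comparison (0.15 ± 0.08 in clone 1 and 0.17 ± 0.08 in clone 2, adjusted p = 0.193 and 0.162).

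**Figure D4:**
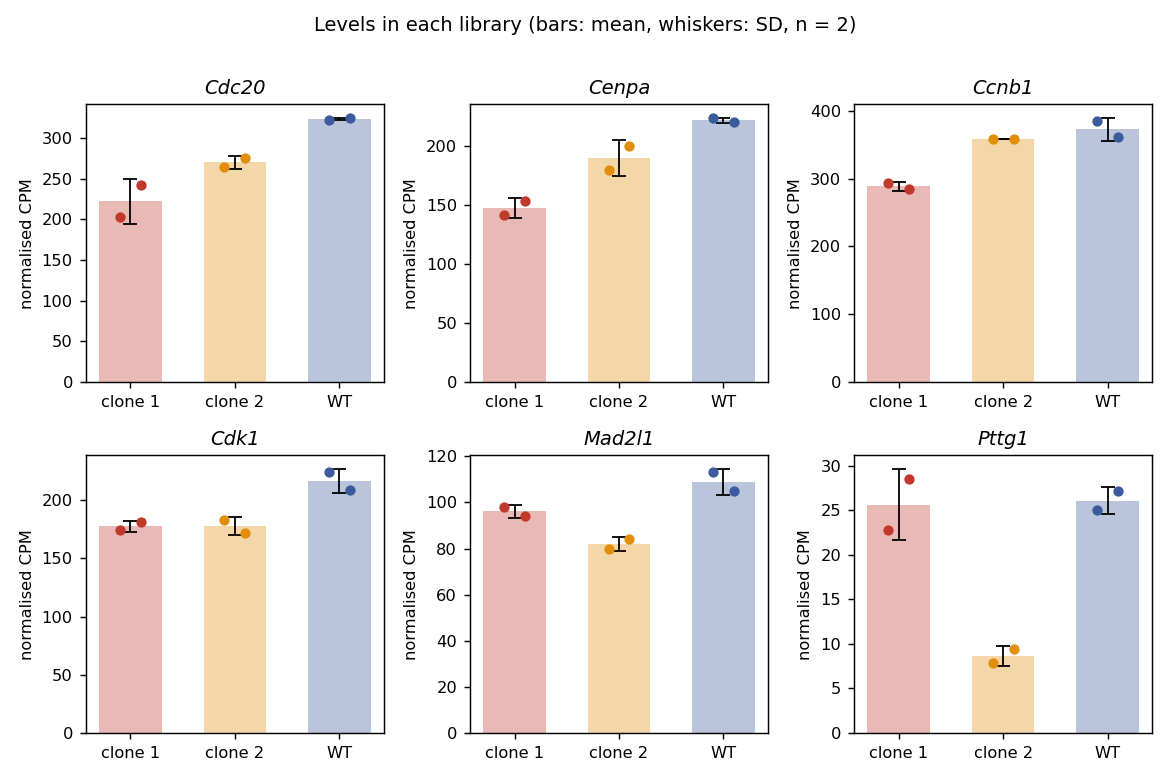
Normalised CPM of Cdc20, Cenpa, Ccnb1, Cdk1, Mad2l1 and Pttg1 in clone 1, clone 2 and WT, with points for libraries, bars for means and whiskers for SD (n = 2). Cdc20 and Cenpa are lowest in clone 1 and highest in WT, and Pttg1 is lowest in clone 2 (7.85 and 9.41 CPM).

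Of 6 centromere and kinetochore genes, 2 fell in clone 1 (9.53% of all genes) and none passed in clone 2 against WT (17.9%). Cenpa (chromosome 5, 30666777 to 30674830, plus strand, GRCm38) encodes the histone H3 variant that marks centromeres. It had 141 and 153 CPM in clone 1, 179 and 200 CPM in clone 2, and 223 and 220 CPM in WT, and no group overlapped another. Cenpa fell by 0.59 ± 0.08 on the log2 scale in clone 1 (adjusted p = 9.44e-05), a call that held under every alternative tried. In clone 2 against WT it stood at -0.23 ± 0.08 (adjusted p = 0.0742), and clone 2 was higher than clone 1 (0.36 ± 0.08, adjusted p = 0.00784), which was lost without clone 2 replicate 2 (adjusted p = 0.185). Cenpf, a large kinetochore protein, had 277 and 214 CPM in clone 1, 313 and 297 CPM in clone 2, and 321 and 323 CPM in WT. The clone 1 libraries were further apart than those of the other groups. Cenpf fell in clone 1 (-0.39 ± 0.10, adjusted p = 0.00946), against -0.08 ± 0.10 in clone 2 (adjusted p = 0.657), and was higher in clone 2 than in clone 1 (0.31 ± 0.10, adjusted p = 0.0439). Ndc80, the microtubule-binding kinetochore subunit, had 62.6 and 58.7 CPM in clone 1, 65.0 and 70.2 CPM in clone 2, and 72.0 and 67.4 CPM in WT. Its fold changes were -0.20 ± 0.10 in clone 1 (adjusted p = 0.154) and -0.04 ± 0.10 in clone 2 (adjusted p = 0.811). Nuf2, the partner of NDC80, stood at -0.27 ± 0.11 in clone 1 and -0.26 ± 0.11 in clone 2 (adjusted p = 0.0720 and 0.100), and Spc25 and Cenpe did not pass. The Cenpf clone 1 call was lost without either WT library (adjusted p = 0.0904 and 0.0967). Its difference between the clones was lost without any one of 5 libraries: WT replicate 1 (0.102), WT replicate 2 (0.102), clone 1 replicate 2 (0.14, adjusted p = 0.222) and either clone 2 library (0.266 and 0.133). It was also lost with DESeq2 (0.0515) and when only the 4 compared libraries were fitted (0.101). Cenpf in clone 1 stood at -0.59 without clone 1 replicate 1 and at -0.22 without clone 1 replicate 2, with adjusted p of 6.03e-09 and 0.0305.

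Of 4 spindle and chromosome structure genes, 1 fell in each clone (9.53% of all genes in clone 1 and 7.81% in clone 2). They were Top2a in clone 1 and Kif2c in clone 2. Top2a had 897 and 722 CPM in clone 1, 1010 and 986 CPM in clone 2, and 981 and 970 CPM in WT. It fell in clone 1 (-0.27 ± 0.09, adjusted p = 0.0378), stood at 0.03 ± 0.09 in clone 2 (adjusted p = 0.842) and was higher in clone 2 than in clone 1 (0.30 ± 0.09, adjusted p = 0.0298). Clone 1 replicate 2 was its lowest library, and without it Top2a stood at -0.12 against WT (adjusted p = 0.210) and at 0.15 between the clones (adjusted p = 0.121). Without clone 1 replicate 1 these values were -0.43 and 0.47 (adjusted p = 1.79e-06 and 5.32e-07). Kif2c, a kinesin that disassembles microtubules at centromeres, had 129 and 115 CPM in clone 1, 117 and 113 CPM in clone 2, and 141 and 140 CPM in WT. Both clones lay below WT. Kif2c fell in clone 2 (-0.29 ± 0.09, adjusted p = 0.0268), against -0.20 ± 0.09 in clone 1 (adjusted p = 0.101). Kif11, the kinesin that pushes spindle poles apart, had 14.5 and 9.36 CPM in clone 1, 11.0 and 15.6 CPM in clone 2, and 9.80 and 9.82 CPM in WT. Its libraries spread widely in both clones, and neither fold change passed (0.28 ± 0.22 in clone 1 and 0.44 ± 0.22 in clone 2, adjusted p = 0.388 and 0.179). Tpx2, which activates Aurora A on the spindle, stood at -0.19 ± 0.08 in clone 1 and -0.04 ± 0.08 in clone 2 (adjusted p = 0.0944 and 0.794). Top2a in clone 1 also lost its call without WT replicate 1 (0.203), WT replicate 2 (0.171) and either clone 2 library (0.0691 and 0.0725) and when only the 4 compared libraries were fitted (0.0778). Between the clones it was lost without WT replicate 1 (0.0768), WT replicate 2 (0.0763) and either clone 2 library (0.204 and 0.145), and when only the 4 compared libraries were fitted (0.0749). Kif2c in clone 2 lost its call without either WT library (0.161 and 0.133) and either clone 2 library (0.130 and 0.214).

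None of 6 midzone and cytokinesis genes passed in clone 1 against WT (21.9% of all genes), and 1 rose in clone 2 (10.1%). Anln encodes anillin, the scaffold of the contractile ring. It had 277 and 238 CPM in clone 1, 296 and 278 CPM in clone 2, and 235 and 226 CPM in WT, with every library of the clones above both WT libraries. Anln rose in clone 2 (0.32 ± 0.09, adjusted p = 0.0169) and stood at 0.16 ± 0.09 in clone 1 (adjusted p = 0.207). Ect2, the exchange factor that activates RhoA at the cleavage furrow, had 183 and 157 CPM in clone 1, 215 and 200 CPM in clone 2, and 198 and 184 CPM in WT. It was higher in clone 2 than in clone 1 (0.29 ± 0.09, adjusted p = 0.0413), with -0.17 ± 0.09 in clone 1 and 0.12 ± 0.09 in clone 2 against WT (adjusted p = 0.201 and 0.399). Kif20a, Kif23, Prc1 and Racgap1, which build the spindle midzone, lay between -0.12 and 0.25 in the 3 clone comparisons and did not pass. The Anln call was lost without either WT library (adjusted p = 0.105 and 0.155) and either clone 2 library (0.206 and 0.0671). The Ect2 difference was lost without either WT library (0.0812 each), clone 1 replicate 2 (0.18, adjusted p = 0.115) and either clone 2 library (0.324 and 0.117), with DESeq2 (0.0570) and when only the 4 compared libraries were fitted (0.0802). Of Kif20a exon bases, 29.3% also lie in Cdc23 on the opposite strand, and since the strand setting of the counting is not given in the sources used here, reads of those bases cannot be told apart. The same holds for 12.7% of Cdc25c, 12.5% of Ccna2, 11.1% of Prc1 and 7.09% of Plk1, since their opposite strands hold other genes. Of the 50-base words in its transcripts, Ccnb1 shares 23.4% with other genes, Ccnb1-ps, Gm12856 and Gm8416 most often. Plk1 shares 10.4%, with Plk-ps1 and Gm44985. The counts of these genes are uncertain to that extent. Pttg1 and Cdk1 share none, and Cenpa 1.54%.

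**Figure D5:**
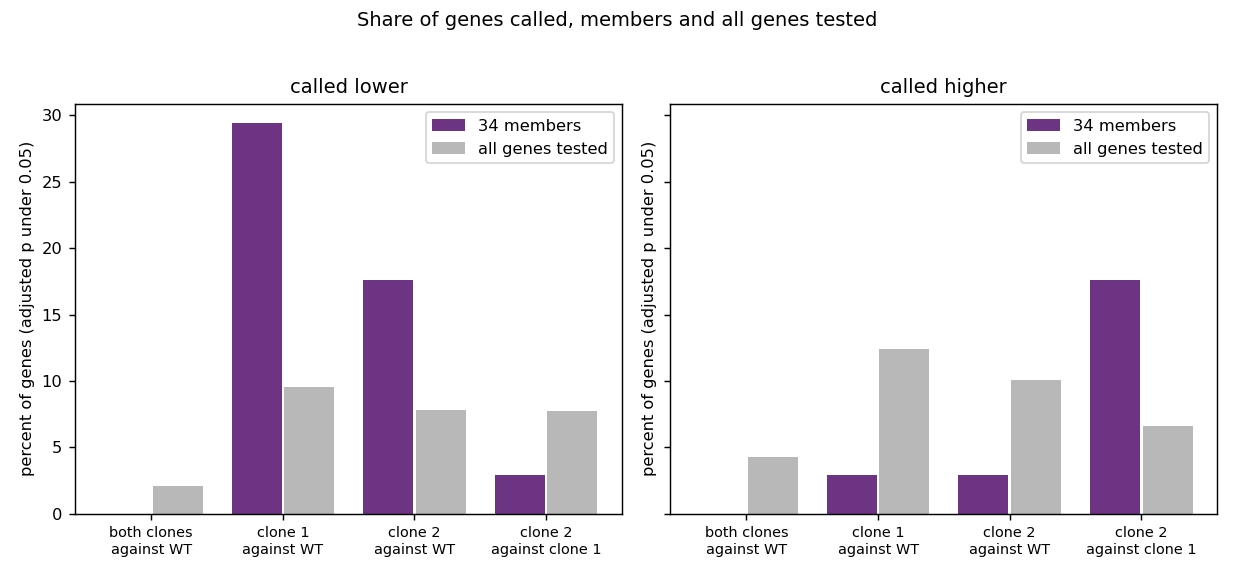
Percent of members and of all 14946 genes tested that were called higher or lower in each comparison (edgeR, adjusted p under 0.05). Among the lower calls, members stand at 29.4% in clone 1 and 17.6% in clone 2, beside 9.53% and 7.81% of all genes.

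Promoters were then set beside the calls, with the limit on the Mad2l1, Kif2c and Pttg1 windows given above, all 3 being genes lower in clone 2. Of the 10 members lower in clone 1, all with a promoter sequence, 8 held a CHR and 9 a CCAAT box, against 13 and 11 of the 17 uncalled members with a sequence. Of the 6 members lower in clone 2, 4 held a CHR and 3 a CCAAT box, against 17 and 18 of 21 uncalled members. Cdc25b, higher in clone 1, held both motifs, and Anln, higher in clone 2, held a CHR alone.

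Other mitotic genes were counted from lists chosen by function, with earlier results of these data known. These counts are to be read beside the 9.53% of all genes lower and 12.4% higher in clone 1. In clone 2 against WT, 7.81% of all genes were lower and 10.1% higher. Between the clones, 6.62% of all genes were higher in clone 2 than in clone 1 and 7.71% lower. Of 18 genes listed for the anaphase-promoting complex, 4 fell in clone 1 and 0 passed in clone 2. Clone 2 was higher than clone 1 for 3 of them. Median log2 fold changes were -0.13 in clone 1 and -0.06 in clone 2 against WT. The list holds subunits, activators and enzymes of the complex, and also Fbxo5, which encodes an inhibitor of it. Fbxo5 was among the genes that fell in clone 1 (-0.41 ± 0.09, adjusted p = 0.00290). Its call was lost without WT replicate 1. Ube2c, the ubiquitin-conjugating enzyme of the complex, averaged 167 ± 14.6 CPM in clone 1 and 223 ± 5.45 CPM in WT (SD, n = 2 each), a log2 fold change of -0.42 ± 0.08 (adjusted p = 0.00157). Of 13 other mitotic kinases, phosphatases and CDK partners, 4 fell in clone 1 and 2 in clone 2 (medians -0.20 in clone 1 and -0.14 in clone 2). Aurka, the kinase of spindle poles, averaged 171 ± 5.31 CPM in clone 1, 216 ± 0.421 CPM in clone 2 and 240 ± 3.17 CPM in WT. It fell in clone 1 by 0.49 ± 0.08 on the log2 scale (adjusted p = 2.41e-04), a call that held under every alternative tried. Of 31 other kinetochore and checkpoint genes, 5 fell in clone 1, and 4 fell and 1 rose in clone 2 (medians -0.09 in clone 1 and -0.05 in clone 2). Ska1, a kinetochore protein that tracks microtubules, averaged 26.8 ± 0.133 CPM in clone 1, 27.5 ± 1.09 CPM in clone 2 and 39.9 ± 4.22 CPM in WT. Its log2 fold changes were -0.57 ± 0.12 in clone 1 (adjusted p = 0.00234) and -0.53 ± 0.12 in clone 2 (adjusted p = 0.00480), and both calls were lost without WT replicate 1 (adjusted p = 0.0620 and 0.102), the clone 2 call also without clone 2 replicate 1 (0.0679).

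Of 19 other kinesins and spindle genes, 1 fell in clone 1 and 1 rose in clone 2 (medians -0.04 in clone 1 and 0.00 in clone 2). Of 18 condensin and cohesin genes, 1 fell in clone 1, a share below that of all genes, and 0 passed in clone 2 (medians -0.05 in clone 1 and 0.04 in clone 2). Of 12 centrosome and centriole genes, 1 fell in each clone and 1 rose in clone 2 (medians 0.06 in clone 1 and 0.11 in clone 2). Cep55, a midbody and centrosome protein needed for the final cut between daughter cells, averaged 129 ± 12.5 CPM in clone 1, 78.4 ± 4.79 CPM in clone 2 and 159 ± 5.10 CPM in WT. It fell by 1.02 ± 0.09 on the log2 scale in clone 2 (adjusted p = 8.24e-07) and by 0.30 ± 0.09 in clone 1 (adjusted p = 0.0236), and clone 2 was lower than clone 1 (-0.72 ± 0.09, adjusted p = 6.50e-05). Both clone 2 calls held under every alternative tried, and that of clone 1 was lost on leaving out either WT library or clone 1 replicate 2 (adjusted p up to 0.181). Of 14 transcription factors of mitotic genes, 3 fell and 1 rose in clone 1, and 2 rose in clone 2 (medians -0.13 in clone 1 and -0.03 in clone 2). Mybl2, which encodes B-Myb, averaged 820 ± 59.6 CPM in clone 1, 1016 ± 6.62 CPM in clone 2 and 1053 ± 52.6 CPM in WT. It fell in clone 1 (-0.36 ± 0.08, adjusted p = 0.00262), a call lost without WT replicate 2 (0.0649). Foxm1 rose in clone 2, at 105 ± 7.30 CPM against 83.5 ± 2.07 CPM in WT (0.34 ± 0.09, adjusted p = 0.0174), which was lost without either WT library (0.157 and 0.0932) and either clone 2 library (0.0569 and 0.231). Of 7 tested cyclins and kinases of G1 and S phase, 2 fell in each clone (medians -0.17 in clone 1 and -0.18 in clone 2). Ccnd1, the G1 cyclin D1, averaged 107 ± 2.06 CPM in clone 1, 151 ± 4.52 CPM in clone 2 and 197 ± 0.771 CPM in WT. It fell by 0.87 ± 0.08 on the log2 scale in clone 1 (adjusted p = 7.99e-07), under every alternative tried, and by 0.39 ± 0.08 in clone 2 (adjusted p = 0.00250), which was lost without clone 2 replicate 1 (0.0656). With both clones taken as 1 genotype, 4 genes of these lists passed against WT: Ska1 (-0.55 ± 0.11, adjusted p = 0.0156), Rbl1 (0.44 ± 0.10, adjusted p = 0.0310), Ccnd1 (-0.61 ± 0.15, adjusted p = 0.0442) and Cenpi (-0.41 ± 0.11, adjusted p = 0.0488). They were 2 of 31 kinetochore and checkpoint genes, 1 of 14 transcription factors and 1 of 7 tested G1 and S phase genes. In the other lists, of 18, 13, 19, 18 and 12 genes, 0 passed. Of all genes tested, 6.36% passed (4.25% higher and 2.11% lower). Rbl1 encodes a pocket protein that represses cell cycle genes, and Cenpi a centromere protein. Each of these 4 calls was lost without either WT library. Each was also lost with counts summed per clone (adjusted p = 0.0577 for Ska1, 0.0805 for Rbl1, 0.0773 for Ccnd1 and 0.0935 for Cenpi). In that setting the clones are the replicates of the knockout label, while WT keeps its 2 libraries. Ccnd1 and Cenpi were also lost with the replicate block (0.0843 and 0.0745), and Rbl1, Ccnd1 and Cenpi without some of the libraries labelled knockout (0.0541 to 0.0889).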

How the data were processed

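The deposited files hold read counts per gene, whole numbers that the authors had not normalised, for 6 libraries of E14 cells. Per the submitters' processing notes, the build was mm10 and the tools were DESeq2 1.18.1, HTSeq 0.9.1 and HISAT2 2.1.0, with no roles stated. Which annotation and strand setting the counting used is not given in the sources used here. The 5 summary entries of each file stayed out of library sizes and tests; ambiguous reads made up 6.96% to 9.10% of a library and reads with several alignments 15.6% to 16.6%.

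The filter filterByExpr of edgeR kept 14946 of 26926 genes that had a count, all 34 members among them. The main test was edgeR's two-sided quasi-likelihood F test (edgeR 4.0.16, R 4.3.3) on TMM-scaled counts, adjusted by Benjamini-Hochberg over all genes tested, at 0.05. Genotype was fitted over all 6 libraries, and the clones were compared in a model of 3 groups sharing 1 spread estimate. Alternatives were DESeq2 1.42.0, other size factors and filters, a replicate block, fits of only the libraries compared, averaging both clone contrasts, counts summed per clone, the longest transcript as length, and leaving out each library. The fits were tested on simulated counts. Of planted log2 changes of 0.585, 63.5% were recovered for genotype, 59.4% for clone 1, 51.6% for clone 2 and 44.3% between the clones. False calls made up 4.7% to 7.5% of the calls. For genotype, the simulated clones were given the same mean levels and the same planted changes, while the real clones differed. The genotype recovery and false calls therefore do not carry over to the genotype test of these data. In each comparison only 1 member changed by more than 0.585.

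Members and lists were chosen with earlier results of these data known. Fold changes and tests were given for every called member, or the 4 smallest p-values where fewer than 4 passed; other genes named are Bcat1 and up to 3 called genes per list with the smallest p. Values by library were given for members called in any comparison and for 12 members chosen by role. GENCODE M21 (GRCm38, equivalent to mm10) gave gene lengths, coordinates and overlaps, and RefSeq the promoters. Figures were drawn with matplotlib 3.10.9.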

Additional observations from a re-analysis of the deposited data

Results flagged for a closer look

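By the test of clone 2 against clone 1, the fold changes against WT differed between the clones for 7 of 34 members (20.6%, against 14.3% of all genes tested). They also differed for 11 of the genes named from the other mitotic lists, where at most 3 were named per list. Among members, the log2 difference was -1.57 for Pttg1, 0.36 for Cenpa, 0.31 for Ccnb1 and Cenpf, 0.30 for Top2a, 0.29 for Ect2 and 0.28 for Cdc20. The Pttg1 difference was the only one of these that passed under every alternative tried.

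Of all genes tested, 6.62% were higher and 7.71% lower in clone 2 than in clone 1. In the anaphase-promoting complex list of 18 genes, clone 2 was higher than clone 1 for Ube2s (0.42), Ube2c (0.35) and Fzr1 (0.34). Of 31 kinetochore and checkpoint genes, 4 were higher and 2 lower in clone 2 than in clone 1. Of those with the smallest p, Cenpp was higher in clone 2 (0.90), and Cenph (-0.45) and Trip13 (-0.38) were lower. Aurka (0.34), Nusap1 (0.52), Mybl2 (0.31) and Ccnd1 (0.49) were higher in clone 2, and Cep55 was lower (-0.72). Each was the only call of its list, with 13, 19, 14, 7 and 12 genes tested in that order. In the condensin and cohesin list, 0 of 18 passed. Of these 11, Cep55 and Ccnd1 passed under every alternative tried. Groups of 2 libraries are too small for a check of single outlying libraries.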

How the results depend on the processing

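With both clones as 1 genotype, the count of members called was 2 with no filter, 4 with DESeq2, 12 as the mean of both clone contrasts, and 0 to 1 leaving out each library, against 0; the share of all genes called was 6.51%, 9.15%, 21.6% and 0.502% to 6.26%, against 6.36%. The median ranged from -0.14 to -0.07. In clone 1 against WT, leaving out each library gave 2 to 14 calls (11 with all), beside 10.1% to 28.5% of all genes (21.9% with all), and a median of -0.19 to -0.10. In clone 2 against WT, the count was 12 when only the 4 compared libraries were fitted and 1 to 14 leaving out each library (7 with all), beside 27.5% and 7.40% to 27.6% of all genes (17.9% with all), with a median of -0.09 to 0.00. Between the clones it was 3 when only the 4 compared libraries were fitted and 1 to 8 leaving out each library (7 with all), beside 11.4% and 6.35% to 20.6% of all genes (14.3% with all), with a median of 0.05 to 0.12. The cause was not tested.

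Replicate numbers were shared between groups, but the deviations of same-numbered libraries correlated over 14946 genes at 0.0513 for clone 1 and WT, -0.0125 for clone 2 and WT, and 0.1254 for the clones, and replicate 1 was the higher library for 23 of 34 members in clone 1, 21 in clone 2 and 27 in WT. With 2 pairs, and labels that tie no number to a shared day or culture, no pairing was assumed. With a replicate block the counts were 0 for genotype, 14 for clone 1, 12 for clone 2 and 9 between the clones, beside 4.32%, 29.5%, 24.7% and 20.1% of all genes. Of the called members, Cdc20 and Cenpa in clone 1, and Pttg1 in clone 2 against WT and against clone 1, passed under every alternative. Over 897 values of 74 gene and comparison pairs, 700 kept their direction and side of the threshold, 182 lost the call (159 of them by leaving out a library), 12 gained it and 3 changed sign. The sign changes were Bcat1 in the genotype comparison, at 0.00 with no filter, -0.01 without WT replicate 1 and -0.04 without clone 1 replicate 2 (-0.04 to 0.03 leaving out each library), none of them past the threshold. With the longest transcript as length, levels spanned 91.8-fold in WT instead of 132-fold, with Top2a above Cdc20, and 1 member moved by over 5 ranks. Member counts ran from 93 to 13128 reads, and 2 libraries a group limit the precision of every test.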

Other observations

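Genes around Pttg1 were looked up within 500000 bases on each side, a window chosen after the Pttg1 values were seen. Of 20 annotated genes there, 5 were tested. All 5 lie on the same side of Pttg1, 7493 to 303261 bases away, so no gene on its other side was tested. Slu7, a splicing factor gene that begins 7493 bases away, had 48.1 and 47.4 CPM in clone 1, 47.9 and 47.4 CPM in clone 2, and 46.2 and 51.7 CPM in WT, and its log2 fold change in clone 2 against WT was -0.04 ± 0.11 (adjusted p = 0.838). Ccnjl was lower in clone 2, at 9.96 and 11.1 CPM against 14.8 and 16.2 CPM in WT (-0.56 ± 0.17, adjusted p = 0.0288), and had 11.8 and 14.5 CPM in clone 1. Pwwp2a, Ttc1 and 4933415A04Rik did not pass in clone 2 against WT (-0.18, -0.17 and -0.05 on the log2 scale). In clone 1 against WT, Pwwp2a was lower (-0.39 ± 0.10, adjusted p = 0.0118) and no other of these neighbours passed.

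Kif11 stood at 1.31 CPM per kb in WT, against a median of 28.0 CPM per kb over the members. Its M21 exons overlap no other gene.

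Between the libraries of 1 group, the log2 difference of replicate 1 and replicate 2 over the 34 members had a median size of 0.14 in clone 1, 0.07 in clone 2 and 0.09 in WT. Across members it followed the length of the longest transcript at a Spearman rho of 0.53 in clone 1, 0.21 in clone 2 and 0.02 in WT, a description over genes of shared libraries. The chi-square per gene between replicates was 8.79 in clone 1, 3.27 in clone 2 and 3.57 in WT over all genes with enough counts.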
